A study of Mus musculus with 9 samples.

Results

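Tppp encodes a tubulin polymerization promoting protein that binds and bundles microtubules and, in the central nervous system, is made mainly by oligodendrocytes, the cells that form myelin. It was studied with 9 other genes that set how stable microtubules are: its relative Tppp3, the stabilisers Map4 and Map6, the tubulin-binding destabiliser Stmn1, the kinases Mark1 to Mark4 and the tubulin deacetylase Hdac6. The 10 genes were chosen by name, and each had a row in the table of 14831 genes. Tppp led the choice because its level after the C9orf72 antisense oligonucleotide (ASO) was already known to be low, so its values in that group are given as a description and without a test. The other 9 were added for their function, with earlier results of these data known.

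Microtubules are polymers of alpha- and beta-tubulin that grow and shrink at their ends. Stabilising proteins bind along the polymer, stathmins such as Stmn1 hold free tubulin and promote shrinkage, and MARK kinases phosphorylate microtubule-associated proteins so that these let go of the polymer. Acetylated tubulin marks long-lived microtubules, and HDAC6, which removes this mark, is bound and inhibited by TPPP. In oligodendrocytes microtubules carry myelin components and RNA into the growing sheaths, and in neurons they form the tracks of axonal transport.

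Spinal cord RNA came from female wild-type mice, C57Bl/6 and 10 weeks old, and was sequenced in 3 groups of 3 libraries. An ASO is a short modified nucleic acid that pairs with a chosen RNA and lowers it. The groups had received saline, 500 µg of a control ASO (number 456835) or 500 µg of an ASO against mouse C9orf72 (number 571883), each in 10 µl given into the lateral ventricle on the right side, and the cord was dissected 2 weeks later. The design asks what loss of C9orf72 function does in the spinal cord. The gene itself was not altered, and 1 ASO sequence stood for its loss, so that lowering of the target and any other effect of that oligonucleotide cannot be told apart. Replicate numbers were given here in the order of the samples and only name a library. The labels do not tie libraries to animals, so p-values cover the spread between these samples, which may be technical.

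The deposited values were RPKM (reads per length of transcript and per size of library), in which each value under 0.5 stood at 0.1. Depth, recovered from the smallest steps of short genes, was 90.3 to 123.5 M reads. C9orf72 itself stood at 10.5, 11.4 and 11.5 RPKM with saline, at 11.2, 11.7 and 10.6 RPKM with the control ASO and at 2.68, 3.40 and 3.12 RPKM with its own ASO, in the direction of the labels. The marker lists of oligodendrocytes, neurons and astrocytes, the main cell types of the spinal cord, had 0 genes at the floor in any library. None of the 10 genes reached the floor, and all 10 passed the filter on low values. Estimated from depth and exon length, the reads behind a value ran from 4110 for Hdac6 to 342000 for Tppp, with a counting error of at most 1.56%, which covers counting only.

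Tppp (ENSMUSG00000021573) was among the most abundant transcripts of the cord, the 35th of 14831 genes by mean level with saline. In saline libraries it stood at 581, 582 and 523 RPKM, and in control ASO libraries at 565, 540.4 and 552 RPKM. In C9orf72 ASO libraries it stood at 336, 312 and 336 RPKM. The 3 C9orf72 ASO libraries lay below all 6 others, with the highest of them far under the lowest control value, while the saline and control ASO libraries overlapped. Means (SD, n = 3) were 562 ± 34.0 RPKM for saline, 552 ± 12.1 RPKM for control ASO and 328 ± 13.7 RPKM for C9orf72 ASO libraries. The last group thus held 59.4% ± 2.49 of the control ASO mean and 58.3% ± 2.45 of the saline mean, which is a log2 difference of -0.75 and -0.78. By mean level Tppp moved from rank 36 of all genes with the control ASO to rank 82.

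The difference between the control groups did not enter the choice of Tppp and was tested. Control ASO libraries held 98.3% ± 2.15 of the saline mean of Tppp. The log2 fold change was -0.02 (SE 0.07, 95% interval -0.17 to 0.12, adjusted p = 0.94, limma), so the data leave room for a change between 0.889-fold and 1.09-fold. In this comparison 1 of 14430 genes tested passed the threshold, an adjusted p under 0.05, or 0.00693% of them, and Tppp was not among them.

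**Figure D1:**
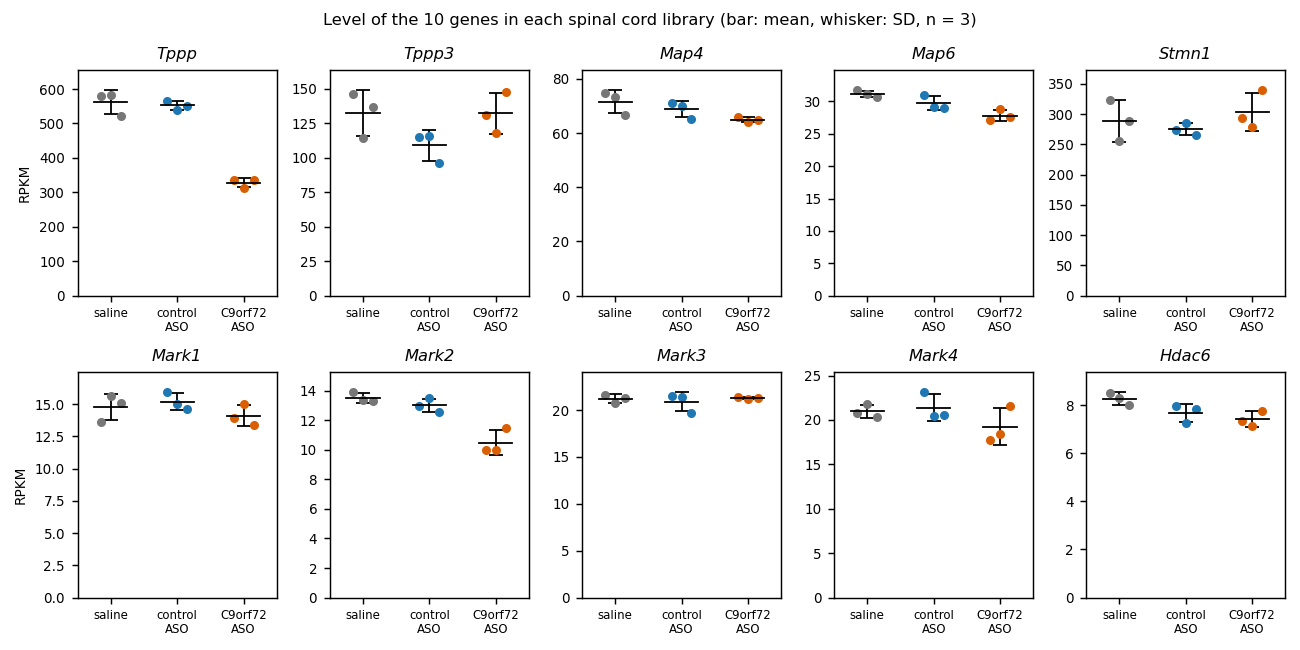
RPKM of the 10 genes in each library, 1 panel per gene with its own linear axis from 0; points are libraries, bars the mean and whiskers the SD of 3. The C9orf72 ASO points of Tppp (312 to 336 RPKM) sit under all other points of that panel, and those of Mark2 (9.99 to 11.5 RPKM) do as well.

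The most abundant genes are set beside Tppp as a description. Of the other 100 genes with the highest saline level, 0 lay at or below Tppp in either comparison with the C9orf72 ASO group. Their log2 differences against the control ASO ran from -0.37 (the haemoglobin gene Hba-a2) to 1.60 (Lars2, a mitochondrial tRNA synthetase gene), with a median of 0.01. Against saline they ran from -0.28 (Cnp) to 1.17 (Lars2).

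Since Tppp is an oligodendrocyte gene, its level was set against myelin genes of the same libraries, a ratio that does not depend on how a library was scaled. Per RPKM of Mbp, the myelin basic protein gene, Tppp stood at 0.208, 0.276 and 0.228 with saline and at 0.265, 0.259 and 0.280 with the control ASO. With the C9orf72 ASO it stood at 0.157, 0.160 and 0.145, under all 6 other ratios. Its group mean was 57.5% ± 2.99 of that with the control ASO and 65.0% of that with saline. Against the summed level of 25 oligodendrocyte genes the group means of Tppp were 0.0628 ± 0.00497, 0.0651 ± 0.00241 and 0.0385 ± 0.00124 (SD, n = 3), in the same order of groups. These ratios fell outside the range of the controls in each C9orf72 ASO library, and they carry the difference for which Tppp was chosen, so that no test is given.

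**Figure D2:**
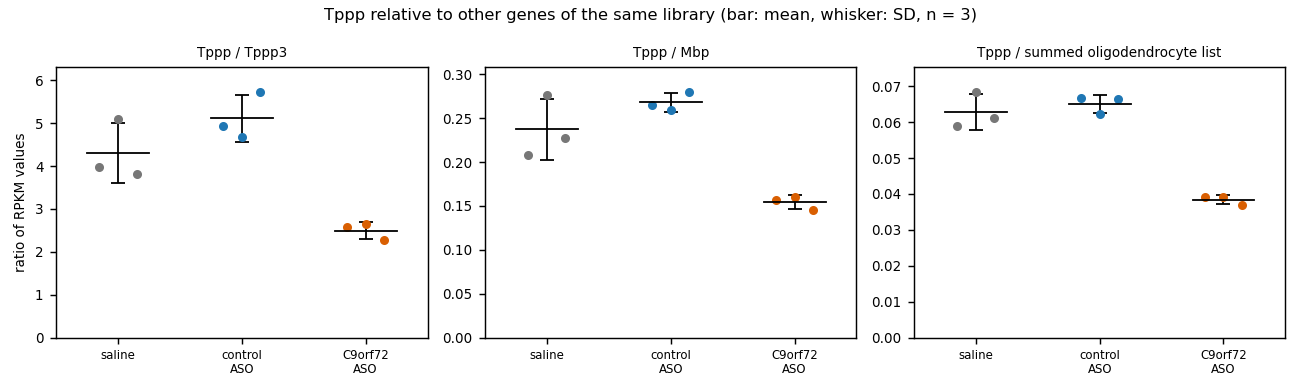
Level of Tppp divided by that of Tppp3, Mbp and the sum of 25 oligodendrocyte genes in the same library (ratio of RPKM values, linear axis from 0); points are libraries, bars means and whiskers SDs of 3. In each panel the 3 C9orf72 ASO libraries lie below the other 6, as with 0.145 to 0.160 for Tppp per Mbp.

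The 25 oligodendrocyte genes themselves summed to 8509 to 9867 RPKM with saline, 8317 to 8669.6 RPKM with the control ASO and 7968 to 9064 RPKM with the C9orf72 ASO, and these ranges overlapped. None of the 25 passed the threshold in any of the 3 comparisons (limma). Of all genes tested, 0.0693% passed against the control ASO, 0.0693% against saline and 0.00693% between control ASO and saline. The median log2 fold change of the 25 was 0.03 against the control ASO and -0.04 against saline, beside -0.01 and -0.03 over all genes tested. At an unadjusted p under 0.05, 1 was higher and 2 were lower against the control ASO (4% and 8%, beside 6.39% and 7.71% of all genes), 0 and 3 against saline (12% lower, beside 3.79% and 10.2%), and 0 and 1 between control ASO and saline (4% lower, beside 1.37% and 3.98%). Against the control ASO, Mbp was at 0.05 on the log2 scale (SE 0.10, adjusted p = 0.861), Mog at 0.08 (SE 0.07, adjusted p = 0.647) and Mobp at 0.06 (SE 0.09, adjusted p = 0.796). The lowest value against the control ASO was that of Cnp, a myelin enzyme that binds tubulin, with means of 347, 353 and 287 RPKM with saline, control ASO and C9orf72 ASO (-0.31, SE 0.10, adjusted p = 0.257). The highest was that of Trf, the transferrin gene (0.26, SE 0.10, adjusted p = 0.28). In bulk tissue, fewer cells of a type and less RNA per cell cannot be told apart. Among markers of other cells, 11 microglia genes summed to 178 to 203 RPKM with saline, 182 to 196 RPKM with the control ASO and 228 to 241 RPKM with the C9orf72 ASO. In the same order, 8 endothelium genes summed to 101 to 112, 80.2 to 102 and 76.5 to 89.4 RPKM, 16 neuron genes to 3776 to 3995, 4010.2 to 4157 and 3583 to 4003 RPKM, and 11 astrocyte genes to 2262 to 2557, 2335 to 2423 and 2361 to 2603 RPKM. The 11 genes of oligodendrocyte precursors, the dividing cells from which oligodendrocytes form, summed to 163 to 186, 172 to 174 and 159.8 to 169 RPKM. Each marker of these lists stood above the floor in every library. Microglia sums were thus higher in each C9orf72 ASO library than in the other 6. Of the 11 microglia genes, 1 passed the threshold against saline (Tyrobp, higher, adjusted p = 0.031, limma) and 0 against the control ASO. In each of these comparisons 0.0693% of all genes passed. At an unadjusted p under 0.05, 7 of the 11 were higher in each (63.6%, beside 3.79% and 6.39% of all genes). The medians of the 11 were 0.31 and 0.29, beside -0.03 and -0.01 over all genes tested. Of the 8 endothelium genes 0 passed. All 8 were lower against saline at an unadjusted p under 0.05 (beside 10.2% of all genes), with no overlap of libraries (beside 12.4%). At that p 2 were lower against the control ASO (25%, beside 7.71%) and 4 between control ASO and saline (50%, beside 3.98%). Medians were -0.54, -0.18 and -0.34 in this order, beside -0.03, -0.01 and -0.02 over all genes tested. By summed level, precursor and neuron sums lay below the control ASO range and overlapped that of saline, endothelium sums lay below the saline range and overlapped that of the control ASO, and astrocyte sums overlapped both. The part of these shifts in the values of the 10 genes was not tested.

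Tppp3 (ENSMUSG00000014846) encodes a shorter paralogue of Tppp that lacks its N-terminal tail and also binds microtubules. It stood at 146, 114 and 137 RPKM with saline, at 115, 116 and 96.2 RPKM with the control ASO and at 131, 118 and 148 RPKM with the C9orf72 ASO. The control ASO group had the lowest mean, and its libraries did not overlap those of the C9orf72 ASO. The saline libraries overlapped those of both other groups. Against the control ASO its log2 fold change was 0.28 (SE 0.11, 95% interval 0.04 to 0.52, adjusted p = 0.304, limma), against saline 0.00 (SE 0.11, 95% interval -0.25 to 0.24, adjusted p = 0.998). The control ASO against saline gave -0.28 (SE 0.11, adjusted p = 0.794). These comparisons share libraries, and none passed the threshold. Tppp exceeded Tppp3 by a ratio of 4.30 ± 0.702 with saline, 5.11 ± 0.552 with the control ASO and 2.50 ± 0.196 with the C9orf72 ASO (SD, n = 3). The sum of Tppp and Tppp3 was 694 ± 33.8, 661 ± 16.3 and 459.9 ± 27.2 RPKM, and the 3 C9orf72 ASO sums (430.0 to 483 RPKM) lay below the other 6 (648 to 727 RPKM).

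The 2 other stabilisers stood lower in level than Tppp3. Map4, a microtubule-associated protein found in many non-neuronal cells, stood at 74.6, 73.2 and 66.8 RPKM with saline, at 71.1, 70.1 and 65.3 RPKM with the control ASO and at 65.9, 63.9 and 64.9 RPKM with the C9orf72 ASO. The last group lay just below the saline libraries and overlapped the control ASO libraries. Its log2 fold change was -0.08 (SE 0.06, 95% interval -0.22 to 0.05, adjusted p = 0.543, limma) in the comparison with the control ASO and, with saline, -0.14 (SE 0.06, adjusted p = 0.348). Map4 has the longest exon sequence of the 10 genes (15143 bases), and with the trend of each library against transcript length removed the value against the control ASO was 0.00. Map6, which protects neuronal microtubules from cold and drugs, stood at 31.7, 31.1 and 30.7 RPKM with saline and at 31.0, 29.2 and 29.0 RPKM with the control ASO. With the C9orf72 ASO Map6 stood at 27.1, 28.8 and 27.6 RPKM, below all 6 others. Its log2 fold change of -0.10 (SE 0.05, 95% interval -0.21 to 0.02, adjusted p = 0.431, limma) against the control ASO and -0.16 (SE 0.05, adjusted p = 0.24) against saline did not pass the threshold. Summed over Tppp3, Map4 and Map6, the other stabilisers held 235 ± 17.1 RPKM with saline, 207 ± 14.6 RPKM with the control ASO and 225 ± 14.7 RPKM with the C9orf72 ASO. The share of Tppp in the RNA of the 4 stabilisers was 70.5% ± 1.96, 72.7% ± 1.44 and 59.3% ± 0.915 in the same order.

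Stmn1, the destabiliser, was the second most abundant of the 10 genes. It stood at 323, 255 and 288 RPKM with saline, 274, 286 and 266 RPKM with the control ASO and 294, 279 and 339 RPKM with the C9orf72 ASO, with overlap between all groups. The log2 fold change was 0.14 (SE 0.09, 95% interval -0.07 to 0.35, adjusted p = 0.521, limma) against the control ASO and 0.07 (SE 0.09, adjusted p = 0.768) against saline. With 1 library left out, the first ran from 0.06 (without C9orf72 ASO replicate 3) to 0.20 (without C9orf72 ASO replicate 2) and the second from -0.01 (without saline replicate 2 or C9orf72 ASO replicate 3) to 0.16 (without saline replicate 1).

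The 4 MARK kinase genes stood close together, with saline means of 21.2 ± 0.469 RPKM for Mark3, 21.0 ± 0.739 RPKM for Mark4, 14.8 ± 1.02 RPKM for Mark1 and 13.5 ± 0.290 RPKM for Mark2. Mark2 (ENSMUSG00000024969), a kinase of tau and other microtubule-associated proteins that also acts in cell polarity, had the lowest unadjusted p of the 9 genes in both comparisons with the C9orf72 ASO. It stood at 13.9, 13.4 and 13.3 RPKM with saline, at 13.0, 13.5 and 12.6 RPKM with the control ASO and at 9.99, 10.0 and 11.5 RPKM with the C9orf72 ASO. The C9orf72 ASO libraries lay below all 6 others, and replicate 3 was the nearest to them. Mark2 held 80.7% ± 6.58 of the control ASO mean and 77.7% ± 6.33 of the saline mean. Its log2 fold change was -0.31 (SE 0.06, 95% interval -0.45 to -0.17, adjusted p = 0.169, limma) against the control ASO and -0.36 (SE 0.06, 95% interval -0.51 to -0.22, adjusted p = 0.0785) against saline, and neither passed the threshold. Without C9orf72 ASO replicate 3 the values were -0.37 (adjusted p = 0.0475) and -0.43 (adjusted p = 0.0238), both past it. Without replicate 1 they were -0.27 (adjusted p = 0.634) and -0.33 (adjusted p = 0.321), and without replicate 2 -0.28 (adjusted p = 0.29) and -0.33 (adjusted p = 0.237). Over the 18 alternatives the adjusted p of Mark2 ran from 0.0475 to 0.634 against the control ASO and from 0.0238 to 0.321 against saline, and it passed in 1 of them in each comparison. The control ASO differed from saline by -0.05 (SE 0.06, adjusted p = 0.857).

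The other MARK genes had fitted differences closer to 0. Mark3 stood at 21.4, 21.2 and 21.3 RPKM with the C9orf72 ASO, within the range of the controls (19.7 to 21.6 RPKM), and its intervals against the control ASO (0.941-fold to 1.11-fold) and saline (0.927-fold to 1.09-fold) were among the narrower ones. Mark4, a kinase studied for its action on tau, stood at 17.7, 18.4 and 21.6 RPKM with the C9orf72 ASO and at 20.5 to 23.1 RPKM with the control ASO. Replicate 3 alone brought the Mark4 groups to overlap. Its log2 fold change was -0.15 (SE 0.08, 95% interval -0.33 to 0.02, adjusted p = 0.4, limma) against the control ASO, and -0.24 without that replicate. Mark1 was at -0.10 (SE 0.07, adjusted p = 0.499) beside the control ASO and, beside saline, at -0.06 (SE 0.07, adjusted p = 0.715). The summed MARK level was 70.5 ± 0.853, 70.4 ± 2.95 and 65.2 ± 2.52 RPKM with saline, control ASO and C9orf72 ASO. Within that sum the share of Mark2 was 19.2% ± 0.581, 18.5% ± 0.749 and 16.1% ± 0.731, and that of Mark3 was 30.1% ± 1.02, 29.6% ± 0.681 and 32.7% ± 1.25. Mark1 and Mark4 have annotated pseudogenes, so that their values are uncertain as far as reads were split.

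Hdac6 was the least abundant of the 10 genes. It stood at 8.51, 8.30 and 8.00 RPKM with saline, 7.96, 7.25 and 7.83 RPKM with the control ASO and 7.35, 7.13 and 7.76 RPKM with the C9orf72 ASO. Saline libraries were the high ones, and the control ASO and C9orf72 ASO libraries overlapped. Its log2 fold change was -0.05 (SE 0.06, 95% interval -0.18 to 0.08, adjusted p = 0.729, limma) against the control ASO, -0.16 (SE 0.06, adjusted p = 0.291) against saline and -0.11 (SE 0.06, adjusted p = 0.794) between control ASO and saline.

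**Figure D3:**
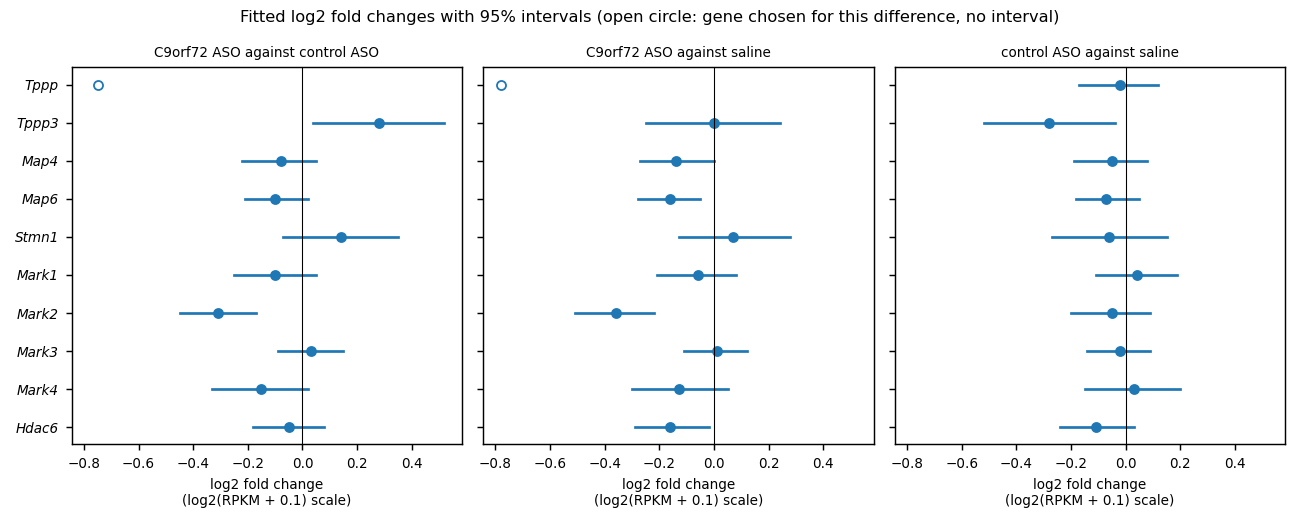
Log2 fold changes of the 10 genes on the log2(RPKM + 0.1) scale in 3 comparisons, with 95% intervals from the fit of all genes; open circles mark Tppp where it was chosen for that difference, without an interval. The intervals of Mark2 exclude 0 in both comparisons with the C9orf72 ASO but its adjusted p did not pass, and Tppp between control ASO and saline lies at -0.02.

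Over the 9 genes other than Tppp, 0 passed the threshold against the control ASO (limma, 1 higher and 1 lower at an unadjusted p under 0.05), where 0.0693% of all genes tested passed. Against saline 0 passed as well (0 higher and 4 lower at an unadjusted p under 0.05), again beside 0.0693% of all genes, and 0 passed between control ASO and saline (0 higher and 1 lower). The share of genes lower at an unadjusted p under 0.05 was 7.71%, 10.2% and 3.98% of all genes in the same order. The share higher at that p was 6.39%, 3.79% and 1.37%. Libraries did not overlap for 1 gene above (Tppp3) and 2 below the control ASO (Map6 and Mark2), where 10.1% and 11.8% of all genes did not. Against saline they did not overlap for 0 genes above and 4 below (Map4, Map6, Mark2 and Hdac6), beside 5.61% and 12.4% of all genes. Between control ASO and saline they did not overlap for 0 above and 1 below (Hdac6), beside 3.16% and 7.15%. Fitted values lay below 0 for 6, 7 and 7 of the 9, beside 54.1%, 58.7% and 57.4% of all genes. The median log2 fold change of the 9 was -0.08, -0.13 and -0.05, beside -0.01, -0.03 and -0.02 over all genes tested. Comparisons that share a group are not independent of each other. Against the control ASO, fold changes also ran with transcript length, with a median of 0.08 over 2794 genes of up to 2425 bases of exon sequence and of -0.07 over 2794 genes of 7689 bases or more. Tppp3 and Stmn1 (1848 and 1922 bases) fell in the short class, Map4, Map6, Mark2 and Mark3 (7942 to 15143 bases) in the long one, and Tppp (5102 bases) in neither. With the length trend removed, Tppp3 was at 0.21, Stmn1 at 0.08, Map4 at 0.00, Map6 at -0.04, Mark2 at -0.26 and Mark3 at 0.09 against the control ASO. Outside these classes Mark1 was then at -0.08, Mark4 at -0.13 and Hdac6 at -0.02. None of the 9 passed the threshold.

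In order of mean saline level per length the 10 genes ran Tppp, Stmn1, Tppp3, Map4, Map6, Mark3, Mark4, Mark1, Mark2 and Hdac6. Mark3 and Mark4 did not differ beyond their spread, and neither did Mark1 and Mark2, while the means of the other neighbours lay apart by more than their summed SDs. Among 99 microtubule genes, the 10 and 89 others listed by function, only the alpha-tubulin genes Tuba1a (759 RPKM) and Tuba1b (629 RPKM) and the oligodendrocyte-rich beta-tubulin gene Tubb4a (577 RPKM) stood above Tppp with saline. With the C9orf72 ASO Tppp was at rank 5, next to Tuba1c at 329.9 RPKM.

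The share of all genes past the threshold was 0.0693% against the control ASO, 0.0693% against saline and 0.00693% between control ASO and saline. Of the 89 other microtubule genes, 0 passed it in each of the 3 comparisons (limma). Against the control ASO, 4 were higher and 10 lower at an unadjusted p under 0.05 (4.49% and 11.2%, beside 6.39% and 7.71% of all genes), with a median log2 fold change of -0.05. Against saline 1 was higher and 18 were lower (1.12% and 20.2%, beside 3.79% and 10.2% of all genes), with a median of -0.04. Between control ASO and saline 3 were higher and 1 was lower (3.37% and 1.12%, beside 1.37% and 3.98%). Fold changes against the control ASO ran with transcript length, and its part in the group medians that follow was not tested.

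The 14 tubulin genes had a median of 0.00 against the control ASO and -0.09 against saline. It was -0.10 between control ASO and saline, where all 14 lay below 0, beside 57.4% and a median of -0.02 over all genes. The 14 summed to 3071 to 3503 RPKM with saline, 2953 to 3237 RPKM with the control ASO and 2912 to 3315 RPKM with the C9orf72 ASO. Tubb6, a minor beta-tubulin, was at 0.36 (SE 0.14, adjusted p = 0.308) and Tuba4a at -0.08 (SE 0.06, adjusted p = 0.565) against the control ASO. The 5 folding cofactors, which assemble tubulin dimers, had a median of 0.10 against the control ASO. Tbce was at 0.16 (SE 0.07, adjusted p = 0.339, limma) and Tbca at 0.19 (SE 0.10, adjusted p = 0.416). Against saline their median was 0.04, with Tbce at 0.04 (SE 0.07, adjusted p = 0.824) and Tbca at 0.24 (SE 0.10, adjusted p = 0.319). The control ASO libraries of Tbce lay below those of saline without overlap.

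Among proteins that bind the polymer, the 16 further stabilisers had a median of -0.11 against the control ASO. Of these 15 lay below 0 (93.8%, beside 54.1% and a median of -0.01 over all genes). Their median was 0.00 against saline, with 8 below 0 (50%, beside 58.7% and -0.03). It was 0.06 between control ASO and saline, with 7 below 0 (43.8%, beside 57.4% and -0.02). Mapt, the tau gene, had means of 207, 201 and 181 RPKM with saline, control ASO and C9orf72 ASO, and the C9orf72 ASO libraries overlapped neither control group (-0.15, SE 0.06, adjusted p = 0.302 against the control ASO). Map1s was at -0.27 (SE 0.09, adjusted p = 0.259). The 13 proteins of microtubule ends had a median of -0.09 against the control ASO. The linker gene Clip3 was at -0.14 (SE 0.06, adjusted p = 0.302, limma) and the plus-end stabiliser Clasp2 at -0.15 (SE 0.06, adjusted p = 0.335). Against saline the median was -0.03, with Clip3 at -0.22 (SE 0.06, adjusted p = 0.176) and Clasp2 at -0.20 (SE 0.06, adjusted p = 0.244). The 11 destabilisers and severing enzymes had a median of -0.05 against the control ASO and of -0.02 against saline. Here the katanin genes Katna1 (0.20, SE 0.07, adjusted p = 0.287) and Katnal1 (-0.20, SE 0.08, adjusted p = 0.315) lay on opposite sides of 0 against the control ASO. Against saline Katna1 was at 0.10 (SE 0.07, adjusted p = 0.601, limma) and Katnal1 at -0.09 (SE 0.08, adjusted p = 0.657).

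The 17 tubulin-modifying enzymes had a median of -0.04 against the control ASO, with the ligase-like gene Ttll12 at -0.22 (SE 0.08, adjusted p = 0.291) and Svbp, which partners the detyrosinating vasohibins, at 0.23 (SE 0.10, adjusted p = 0.335). Against saline the median was -0.05, with Ttll12 at -0.20 (SE 0.08, adjusted p = 0.321, limma) and Svbp at 0.14 (SE 0.10, adjusted p = 0.56). Ttll6, the point farthest to the right, was at the floor in every control ASO library, so that its fitted value is no fold. The 13 kinases and partners had a median of -0.14 against the control ASO, with 12 below 0 (92.3%, beside 54.1% of all genes). Their median was -0.08 against saline, with 11 below 0 (84.6%, beside 58.7%). It was 0.05 between control ASO and saline, with 4 below 0 (30.8%, beside 57.4%). In this group Gsk3b, a kinase of tau, had means of 44.0, 52.0 and 41.5 RPKM with saline, control ASO and C9orf72 ASO. It was at -0.33 (SE 0.11, adjusted p = 0.257, limma) against the control ASO and at -0.08 (SE 0.11, adjusted p = 0.782) against saline. The control ASO mean was the highest, but its libraries overlapped those of saline (0.25, SE 0.11, adjusted p = 0.794). Brsk1, a neuronal polarity kinase, was at 74.0, 73.8 and 61.5 RPKM (-0.26, SE 0.08, adjusted p = 0.254; against saline -0.27, SE 0.08, adjusted p = 0.234).

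**Figure D4:**
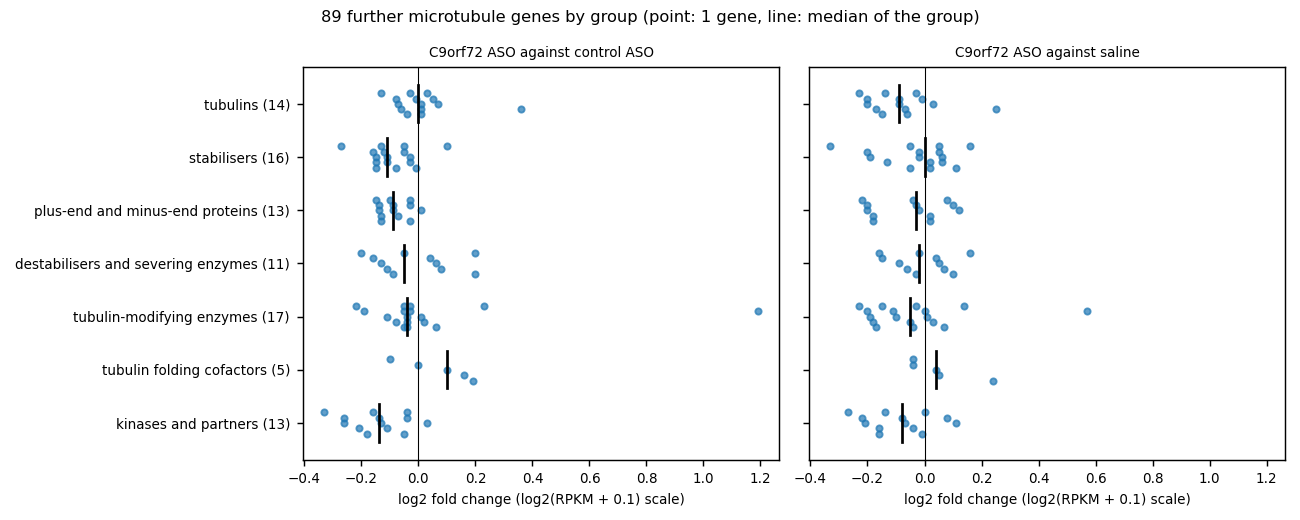
Log2 fold changes of 89 further microtubule genes on the log2(RPKM + 0.1) scale against the control ASO (left) and saline (right), by functional group with the number of genes; each point is 1 gene and each line a group median. Medians run from -0.14 to 0.10 on the left, and 0 genes passed the threshold; Ttll6, at the right edge, is at the floor in all control ASO libraries.

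The genes whose pattern was most like that of Tppp were sought among 13180 genes by the root mean square difference of log2 values, each centred on its own mean, over the 9 libraries. A gene with no change at all would differ from Tppp by 0.36. The nearest were the predicted gene Gm3852 (0.14), an unnamed gene, ENSMUSG00000069671 (0.15), Hipk2, a stress-responsive nuclear kinase gene (0.16), Mmp14, a membrane-bound matrix protease gene (0.17), and Sema3g, a secreted semaphorin gene (0.18). Hipk2 had means of 42.0 ± 4.51, 41.0 ± 1.36 and 30.4 ± 1.31 RPKM with saline, control ASO and C9orf72 ASO (SD, n = 3), and Mmp14 of 7.37 ± 1.36, 6.03 ± 0.477 and 4.42 ± 0.328 RPKM. Within the 10 genes Mark2 was the nearest to Tppp (0.21, rank 34), and Tppp3 the farthest (0.46, rank 12288). These genes were picked by the same libraries, and their values are a description.

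The nearest named protein-coding genes with measured values on either side of Tppp were also fitted, and none of the 4 passed the threshold. Their order alone came from a RefSeq table of another build, and any genes without values were passed over. Nkd2, an inhibitor of Wnt signalling, and Brd9, a chromatin remodelling subunit, lie on one side, with log2 fold changes against the control ASO of -0.08 (SE 0.10, adjusted p = 0.714, limma) and 0.07 (SE 0.06, adjusted p = 0.595). Cep72, a centrosome protein gene, and Exoc3, an exocyst subunit, lie on the other, with 0.29 (SE 0.15, adjusted p = 0.406) and 0.05 (SE 0.06, adjusted p = 0.74). No annotated gene overlapped an exon of Tppp on either strand in the GENCODE annotation.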

How the data were processed

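The authors deposited 1 table of 14831 genes by 9 libraries, whose values were taken as RPKM from their form, since the header names no unit. The submitters' processing notes name cutadapt 1.2.1, GSNAP and the build mm9. The counter, its use of strand, the annotation and the gene filter were not given in the sources used here, so genes with near copies are uncertain. RNA was extracted with Trizol and libraries were strand-specific, per the labels' protocols. Symbols (14321 genes) came from a reference table, and exon lengths from GENCODE on GRCm38, so no coordinates are given and reads per gene are approximate.

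Depth was read from genes up to 350 bases, where 63.1% to 80.6% of low values lay within 0.1 of a whole read. The 14430 genes that reached 0.5 RPKM in 3 or more libraries entered a test on log2(RPKM + 0.1) with limma 3.58.1 (R 4.3.3, statmod 1.5.0; mean trend, robust), 1 fit of 9 libraries, with Benjamini-Hochberg adjustment over all of them and a threshold of 0.05. The pseudocount understates changes of low genes, while the floor can understate or overstate those of genes that reach it. The test was also run on simulated sets of all 9 libraries (14430 genes, 200 changed in the C9orf72 ASO group), with independent noise. The changed genes had a mean of at least 1 RPKM. Against the control ASO it called 36.4% of 1.25-fold, 79.4% of 1.5-fold and 97.4% of 2-fold changes. These shares do not cover lower genes or effects shared by the genes of a library. In the data 10 genes passed in this comparison. With fewer changed genes than the 200 simulated the adjustment is stricter, so the shares may be too high for these data.

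The members and lists were chosen with earlier results of these data known. The named genes were the 10, the target, in each functional list genes past the threshold or else the 2 with the smallest unadjusted p against the control ASO, a set choice of oligodendrocyte genes (1 of them not reported here) with the 2 of smallest unadjusted p, the 5 genes most like Tppp and its 2 neighbours on each side. The neighbours were the nearest named protein-coding genes with measured values. Ttll6, Tuba1a, Tuba1b, Tubb4a, Tuba1c, Lars2, Hba-a2 and Tyrobp were named after their values were seen. Tppp2, Aif1 and Lhfpl3 were listed but are not analysed here. Control ASO replicate 3 has a strain only in its source name. Alternatives covered the test setting, filter, pseudocount, floor, scaling, samples, length trend and each library left out.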

Additional observations from a re-analysis of the deposited data

How the results depend on the processing

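Tppp in its 2 comparisons with the C9orf72 ASO group was given without a test, and all 36 refits kept its direction. Of the other 504 refits of the 10 genes (18 alternatives for each comparison), 487 kept their direction and their side of the threshold, 2 (Mark2 without C9orf72 ASO replicate 3) passed it and 15 changed sign, none of which passed the threshold in any fit. Tppp stayed between -0.77 and -0.72 against the control ASO and between -0.83 and -0.73 against saline. Tppp3 against saline changed sign with median ratio scaling (0.03) and ran from -0.11 to 0.08 with 1 library left out. The other changes of sign also came from leaving out 1 library. The ranges were -0.01 to 0.05 for Mark3 against the control ASO and -0.01 to 0.02 against saline, and -0.01 to 0.16 for Stmn1 against saline. Between control ASO and saline they were -0.08 to 0.00 for Tppp, -0.02 to 0.08 for Mark1, -0.04 to 0.02 for Mark3, -0.03 to 0.05 for Mark4 and -0.15 to 0.02 for Stmn1. The number of genes called against the control ASO was 10, and 19 without trend and robust estimation, 16 without a filter. Against saline it was 10, and 4 with only the groups compared, 25 with the length trend removed. Between control ASO and saline it was 1, and 9 without trend and robust estimation, 5 without a filter, 0 with only genes at 0.5 or more in all libraries and 2 with the length trend removed. The cause of these moves was not tested. Leaving out 1 library gave 7 to 27 genes against the control ASO, 4 to 54 against saline and 0 to 2 between control ASO and saline. The counts of 27 and 54 came without C9orf72 ASO replicate 3. Against saline, 16 were called without control ASO replicate 3, and 4 without any 1 of saline replicate 2 and C9orf72 ASO replicates 1 and 2. Between control ASO and saline, 0 were called without any 1 control ASO library and 2 without saline replicate 1. The number called among the 9 other genes was 0 to 1 against the control ASO and 0 to 1 against saline, and 0 of the 89 further genes passed in any of these fits. The Tppp to Mbp ratio after the C9orf72 ASO was 56.4% to 59.2% of that after the control ASO when 1 library was left out, a check added after the data were seen. No paired analysis was possible because the labels number no replicates, and the numbers used here were given in sample order within each group.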
